A study of Mus musculus with 6 samples.

Results

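Sod3 and 9 further genes of reactive oxygen handling were followed in RNA-seq of NOR-10, a fibroblast line from mouse skeletal muscle, with and without D-galactose (D-gal). They are the superoxide dismutases Sod1, Sod2 and Sod3, catalase (Cat), the glutathione peroxidases Gpx1, Gpx3, Gpx4 and Gpx8, the oxidase Nox4, and Txnip. These are 10 of the 34745 genes in the table. They were chosen by name from their functions, with results of this same D-gal against control comparison already known, in which Sod3 was higher. Their differences between the groups are therefore given as a description. Where the test run over all genes called any of them, this is listed, and nothing is read from it.

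Superoxide dismutases turn superoxide into hydrogen peroxide, and catalase and peroxidases then turn hydrogen peroxide into water. The enzymes divide the cell between them: Sod1 works mainly in the cytosol, Sod2 in mitochondria, Sod3 in the extracellular matrix and catalase in peroxisomes. Fibroblasts are a known source of secreted Sod3, and Nox4 is a known source of hydrogen peroxide in these cells.

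The control group received PBS and the D-gal group 20 mg/mL D-gal for 3 days, and n = 3 libraries were sequenced in each group. All libraries come from 1 purchased cell line with no genetic change named, and D-gal is used in the study to bring about senescence. The labels number the replicates but do not say that they are separate cultures, so a p-value measures the spread between these libraries only.

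Total counts per library were 16876087 to 20830349 under PBS and 13759108 to 15157064 under D-gal, so that every D-gal library was the shallower. Fibroblast markers were tested in 8 of 9 cases. Their summed level was 3430 to 3530 TPM (a count scaled by gene length and library total) under PBS and 2350 to 2420 TPM under D-gal. Of the 8 tested, Pdgfrb alone was higher under D-gal (248.8 and 288.7 TPM), and Pdgfra differed little (203.9 and 195 TPM). Lum, not tested, had 1 count in control replicate 2 and 0 in every other library. In these cells, labelled as skeletal muscle fibroblasts, muscle markers (2 of 7 tested) summed to 7.47 to 9.09 TPM under PBS and 5.47 to 6.33 TPM under D-gal. Pax7, Myf5 and Myod1 were at 0 in every library, while Acta1 (5.35 and 4.16 TPM) and Des (2.72 and 1.60 TPM) were low. Smooth muscle markers (3 of 3 tested) summed to 126 to 128 TPM and 172 to 178 TPM, and so moved with Sod3, but the defining gene Myh11 was low at 0.3495 and 0.9414 TPM. Macrophage and leukocyte markers (2 of 4 tested) summed to 8.64 to 27.2 TPM and 9.11 to 11 TPM, and the highest sum was that of control replicate 1, with 141 counts of Csf1r against 38 and 16 in the other control libraries. Endothelial sums were at most 1.39 TPM and adipocyte sums at most 0.0349 TPM. The part of these markers in the results below was not tested, and in bulk RNA fewer cells of a type and less RNA per cell cannot be told apart.

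Sod3 (ENSMUSG00000072941), the secreted copper and zinc dismutase that binds matrix, was about 3 times higher under D-gal in every library. The gene lies on the plus strand of chromosome 5 from 52363791 to 52371418 in GRCm38, and its transcript has 2 exons, of which 1 is coding and holds all 251 codons. Counts scaled to a common library size (normalized counts) were 2859, 2941 and 2829 under PBS and 8564, 9270 and 8673 under D-gal. The lowest D-gal library thus lay far above the highest control library. The means were 2876 ± 57.97 and 8836 ± 380 (SD, n = 3 each), a 3.07-fold difference with a log2 fold change of 1.62 (SE 0.04, 95% interval 1.53 to 1.71). This log2 fold change stood at percentile 99.2 of the 13407 genes tested. Without control replicate 1, the library with the most leukocyte marker counts, it was 1.61.

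**Figure D1:**
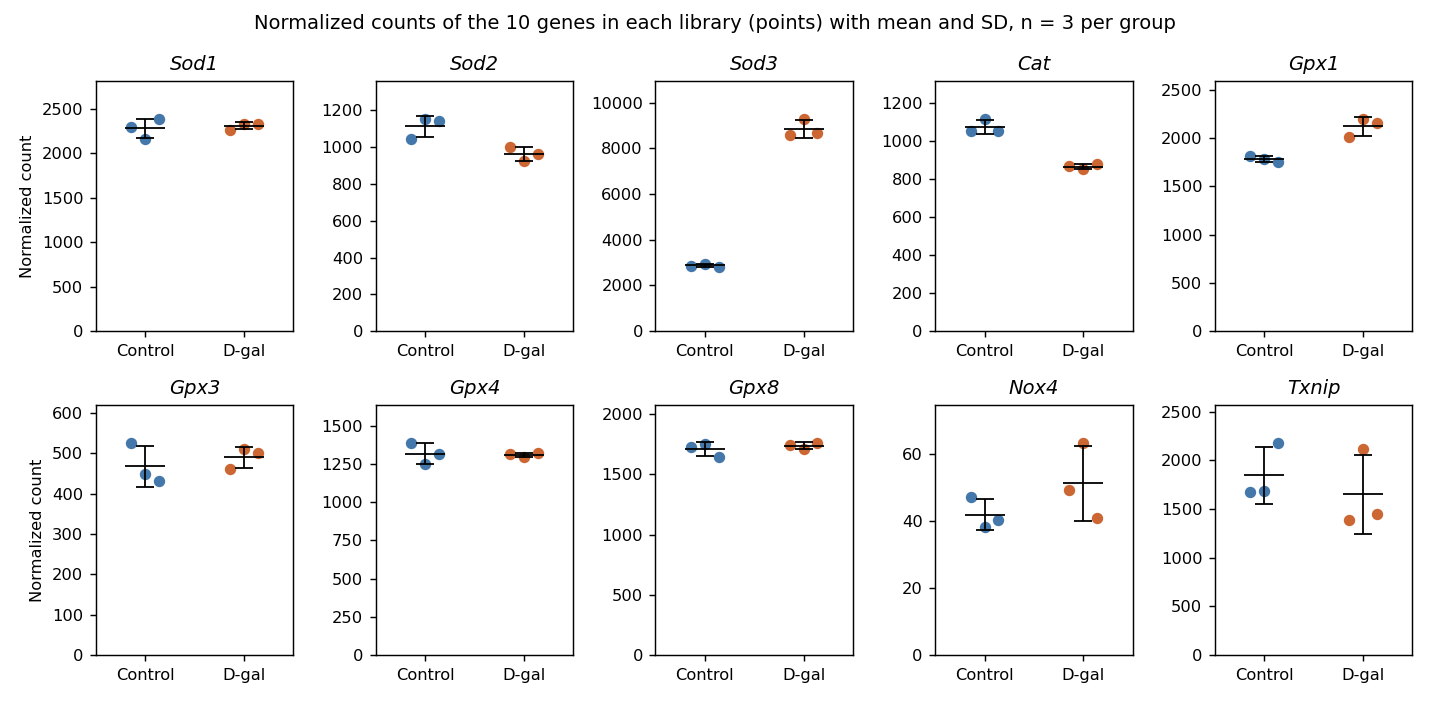
Normalized counts (vertical axes, each starting at 0) of the 10 genes in the 3 control and 3 D-gal libraries, as points with the mean and SD. Sod3 lies between 2829 and 2941 under PBS and between 8564 and 9270 under D-gal, while Nox4 and Txnip overlap between the groups.

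Sod1 (ENSMUSG00000022982, chromosome 16, 90220742 to 90226322, plus strand), the cytosolic copper and zinc enzyme, differed little between the groups. Its normalized counts were 2296, 2166 and 2386 under PBS and 2266, 2337 and 2336 under D-gal. The groups overlapped, and the log2 fold change was 0.02 (SE 0.04, 95% interval -0.08 to 0.12). Sod1 and Sod3 belong to the same family, with 63 of 147 aligned residues identical in their translated coding sequences (42.9%), whereas Sod2, the manganese enzyme, is of another family. Of the distinct words of 31 bases in their exons, 5.41% for Sod1 (pseudogenes among them) and 0.49% for Sod3 occur in any other annotated gene.

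Sod2 (ENSMUSG00000006818, chromosome 17, 13007839 to 13018119, plus strand) was slightly lower under D-gal. Its normalized counts were 1046, 1152 and 1142 under PBS and 1001, 923.8 and 960.4 under D-gal. The groups did not overlap, although control replicate 1 lay close to D-gal replicate 1. The log2 fold change was -0.21 (SE 0.06, 95% interval -0.34 to -0.08). Of its words of 31 bases, 26.7% occur in other annotated genes, such as Rps6ka2 and a long noncoding RNA, so its count is uncertain where reads could be split.

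Per length, Sod3 took a larger share of the summed dismutase transcripts under D-gal on every gene length used. With the length of all exons together, Sod3 made up 52.8%, 54.3% and 51.4% of the summed TPM of Sod1, Sod2 and Sod3 under PBS, and 77.4%, 78.5% and 77.2% under D-gal. The sum itself was 287.7 ± 3.1 TPM under PBS and 609.6 ± 24.8 TPM under D-gal (SD, n = 3), and the difference was nearly all Sod3. The share of Sod1 was 39.5% ± 1.61 and 19.2% ± 0.51, and that of Sod2 7.64% ± 0.38 and 3.16% ± 0.23. These shares depend strongly on the length taken for Sod1, whose exons together cover 3970 bases, whereas its principal transcript has 641 bases and the deposited FPKM imply 646. With principal transcript lengths, chosen after the data had been seen, Sod1 led in both groups with 78.8% and 58.8%, and Sod3 had 17.0% and 38.5%. With the deposited FPKM the share of Sod3 was 16.8% and 38.1%. Which dismutase was the most abundant therefore cannot be read from these counts. The Sod3 share was larger in every D-gal library on all 3 scales, but each scale divides the same counts by a fixed length per gene. As Sod3 rose far more than Sod1 and Sod2, its share had to rise on any length, so the 3 scales are no separate support. The size of the rise in the sum also depended on the length used. With principal transcripts the sum was 646.6 ± 20.7 TPM under PBS and 897.3 ± 26.3 TPM under D-gal. On the deposited FPKM it was 270.3 ± 8.71 and 373.3 ± 9.65.

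**Figure D2:**
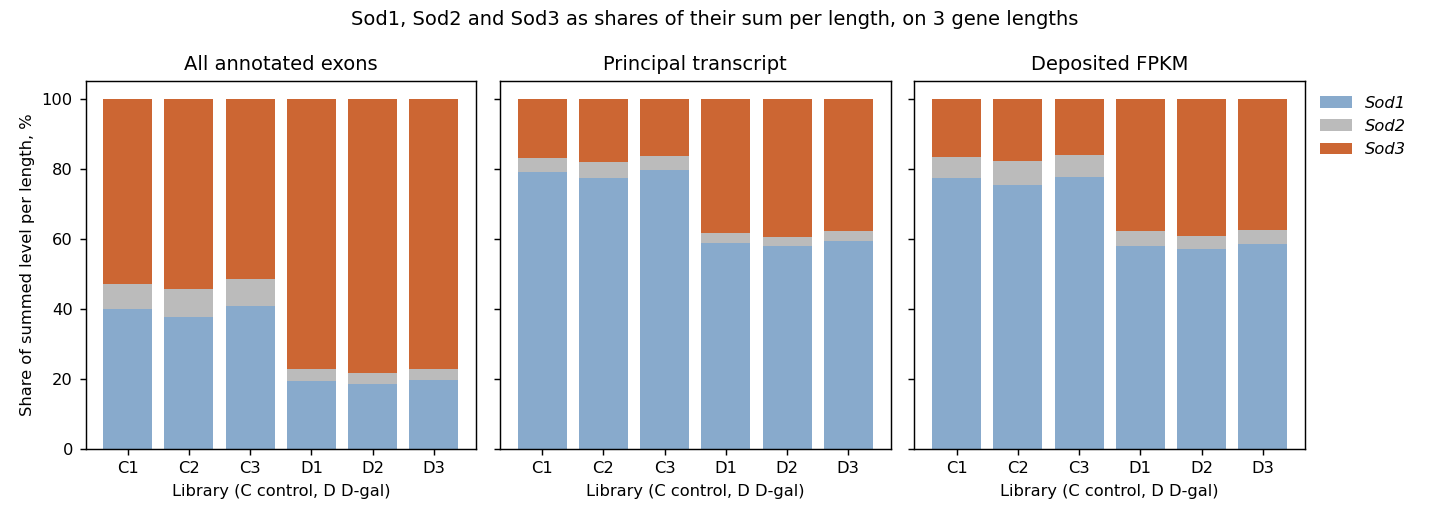
Shares of Sod1, Sod2 and Sod3 in their summed level per length (vertical axis, percent), 1 bar for each library, with 1 panel for each of 3 gene lengths. The Sod3 part is larger in all D-gal libraries on each length, for example 77.2% to 78.5% against 51.4% to 54.3% with the length of all exons.

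Cat (ENSMUSG00000027187, chromosome 2, 103453849 to 103485160, minus strand), which splits hydrogen peroxide in peroxisomes, was lower under D-gal. Its normalized counts were 1054, 1115 and 1055 under PBS and 866.4, 851.8 and 878.4 under D-gal. The groups lay apart. The SD among D-gal libraries was 1.54% of the mean, below the 3.63% that counting alone gives, so nothing is read from its small size. The means were 1075 ± 34.76 and 865.5 ± 13.35, and the log2 fold change was -0.31 (SE 0.05, 95% interval -0.42 to -0.20), a ratio of 0.805. No word of 31 bases of Cat occurs in another annotated gene.

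The 4 glutathione peroxidases use glutathione or other thiols to reduce peroxides. Gpx1 is the main cytosolic enzyme, Gpx3 is secreted, Gpx4 reduces lipid peroxides in membranes, and Gpx8 is a membrane protein of the endoplasmic reticulum. Several members of the family carry selenocysteine in the active site, which is read from an in-frame TGA codon, but Gpx8 is known to carry cysteine. The windows of 27 bases around that codon are shown because this difference splits the 4 genes by their need for selenium. They come from GENCODE M21 transcripts on GRCm38, and the capitals mark the active-site codon, with 4 codons on either side.
Gpx1: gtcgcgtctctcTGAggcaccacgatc
Gpx3: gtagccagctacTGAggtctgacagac
Gpx4: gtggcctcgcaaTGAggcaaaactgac
Gpx8: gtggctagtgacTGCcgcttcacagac

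The Gpx1 window is codon 47 and its flanks, in exon 1 (chr9:108339439-108339465, plus strand). The Gpx3 window is at codon 73, in exon 2 (chr11:54907244-54907270, plus strand), and the Gpx4 window at codon 73, in exon 3 (chr10:80054725-80054751, plus strand). In Gpx8 the aligned codon is number 79, TGC for cysteine, in exon 2 (chr13:113045649-113045675, minus strand). The translated Gpx1 sequence shared 52.3% of aligned residues with Gpx3, 40.6% with Gpx4 and 33.7% with Gpx8.

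Of the 4, Gpx1 was higher under D-gal and the others differed little. Gpx1 (ENSMUSG00000063856, chromosome 9, 108338903 to 108340343, plus strand) had normalized counts of 1817, 1786 and 1748 under PBS and 2014, 2196 and 2158 under D-gal. The groups did not overlap, and the log2 fold change was 0.25 (SE 0.04, 95% interval 0.15 to 0.35), or 1.19-fold.

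Gpx3 (ENSMUSG00000018339, chromosome 11, 54902453 to 54910377, plus strand) had 525.5, 448 and 430.2 normalized counts under PBS and 460.1, 510 and 500.1 under D-gal. Control replicate 1 was the highest of all 6 libraries, so the groups overlapped. The log2 fold change was 0.07 (SE 0.09, 95% interval -0.14 to 0.27). It was 0.16 without control replicate 1, 0.04 without control replicate 2, 0.01 without control replicate 3, 0.11 without D-gal replicate 1 and 0.04 without D-gal replicate 2.

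Gpx4 (ENSMUSG00000075706, chromosome 10, 80047166 to 80056439, plus strand) had 1388, 1250 and 1315 normalized counts under PBS and 1313, 1297 and 1321 under D-gal. All D-gal values lay within the control range, and the log2 fold change was -0.01 (SE 0.05, 95% interval -0.12 to 0.10). Since 38.9% of its words of 31 bases occur in other annotated genes, among them the pseudogene Gpx4-ps2, its count is uncertain.

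Gpx8 (ENSMUSG00000021760, chromosome 13, 113042763 to 113046388, minus strand) had 1727, 1756 and 1647 normalized counts under PBS and 1746, 1713 and 1762 under D-gal. The groups overlapped, with a log2 fold change of 0.03 (SE 0.04, 95% interval -0.07 to 0.12). In the summed TPM of the 4 peroxidases, over the length of all exons, Gpx1 made up 31.8% ± 0.31 under PBS and 35.4% ± 1.01 under D-gal, and Gpx8 41.9% ± 1.02 and 39.9% ± 0.90.

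Nox4 and Txnip, the members that add to oxidant load or restrain its removal, were the most variable of the 10. Nox4 (ENSMUSG00000030562, chromosome 7, 87246096 to 87398710, plus strand), an NADPH oxidase that releases hydrogen peroxide, was low, with deposited counts of 54, 47 and 40 under PBS and 44, 58 and 34 under D-gal. Its normalized counts were 47.06, 38.35 and 40.39 against 49.38, 63.34 and 40.97. D-gal replicates 1 and 2 lay above all control libraries and replicate 3 did not, so the groups overlapped. The log2 fold change was 0.29 with a wide 95% interval of -0.19 to 0.78 (SE 0.21), so no direction was resolved. It was 0.11 without D-gal replicate 2 and 0.43 without D-gal replicate 3.

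Txnip (ENSMUSG00000038393, chromosome 3, 96557957 to 96561883, plus strand), which binds and inhibits thioredoxin and is known to be induced by glucose, had 1671, 1684 and 2179 normalized counts in the control libraries. The D-gal libraries had 1383, 2118 and 1448. Control replicate 3 and D-gal replicate 2 stood above the other libraries of their groups, and the groups overlapped. The log2 fold change was -0.16 (SE 0.17, 95% interval -0.55 to 0.23). It was -0.38 without D-gal replicate 2, -0.02 without control replicate 3, -0.05 without D-gal replicate 1 and -0.07 without D-gal replicate 3. An antisense gene, Gm15441, overlaps its exons on the other strand and 17.4% of its words of 31 bases are shared, but Gm15441 itself had no more than 10 counts in any library.

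For Txnip, counting error was a small part of the spread between replicates. Its coefficient of variation was 15.7% under PBS and 24.7% under D-gal, where counting alone gives 2.21% and 2.62%. For Nox4 the values were 10.9% and 22.1%, where counting gives 14.6% and 14.9%. Its control spread thus lay within counting error, and its D-gal spread lay above it. Sod3 varied by 2.02% and 4.30%, where counting gives 1.76% and 1.13%. Gpx4 varied by 5.24% and 0.909%, where counting gives 2.6% and 2.95%, so its D-gal spread was below counting error.

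**Figure D3:**
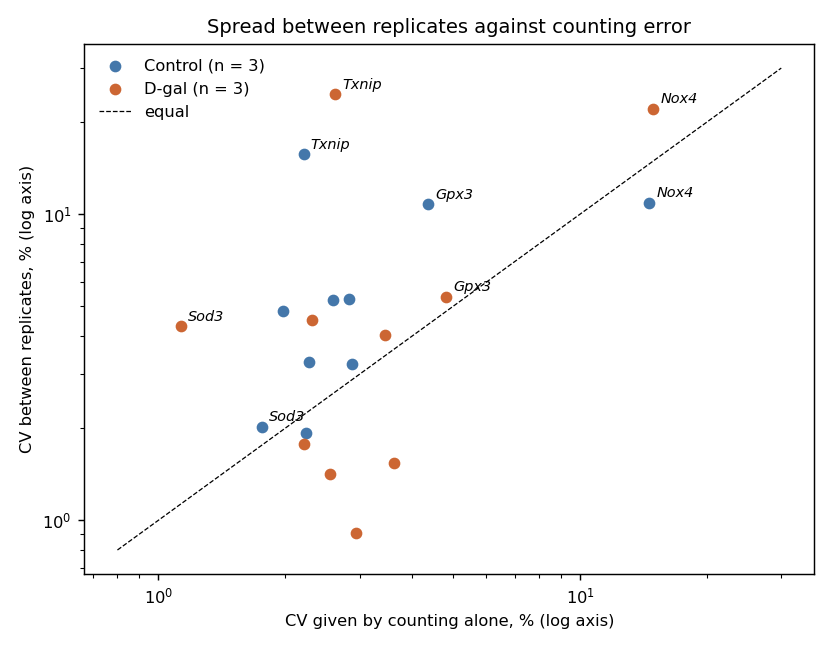
Coefficient of variation between 3 replicates (vertical log axis, percent) against the value that counting alone gives (horizontal log axis, percent) for the 10 genes in each group, with a dashed line where both are equal. Txnip lies far above the line in both groups, at 15.7% and 24.7%, while Nox4 lies near it.

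All 10 genes passed the filter on low counts. At an adjusted p under 0.05 in edgeR's quasi-likelihood test, 2 were higher (Sod3 and Gpx1) and 2 were lower (Sod2 and Cat), while over all genes tested 16.9% were higher and 17.8% lower. Sod3 alone also had a log2 fold change of at least 1, which 2.37% of all genes tested had in the higher and 1.83%, with -1 or less, in the lower direction. The control and D-gal libraries did not overlap in 4 of the 10, and in 49.1% of all genes tested. As this comparison was known when the genes were chosen, nothing is read from these counts. The median log2 fold change of the 10 was 0.02, where that of all genes tested was 0.0036. Sod2 was past the threshold in 9 of 14 alternative analyses, from which nothing is read either. Of the other 5, 4 left out control replicate 2 or 3 or D-gal replicate 2 or 3, with log2 fold changes of -0.18, -0.19, -0.18 and -0.21.

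**Figure D4:**
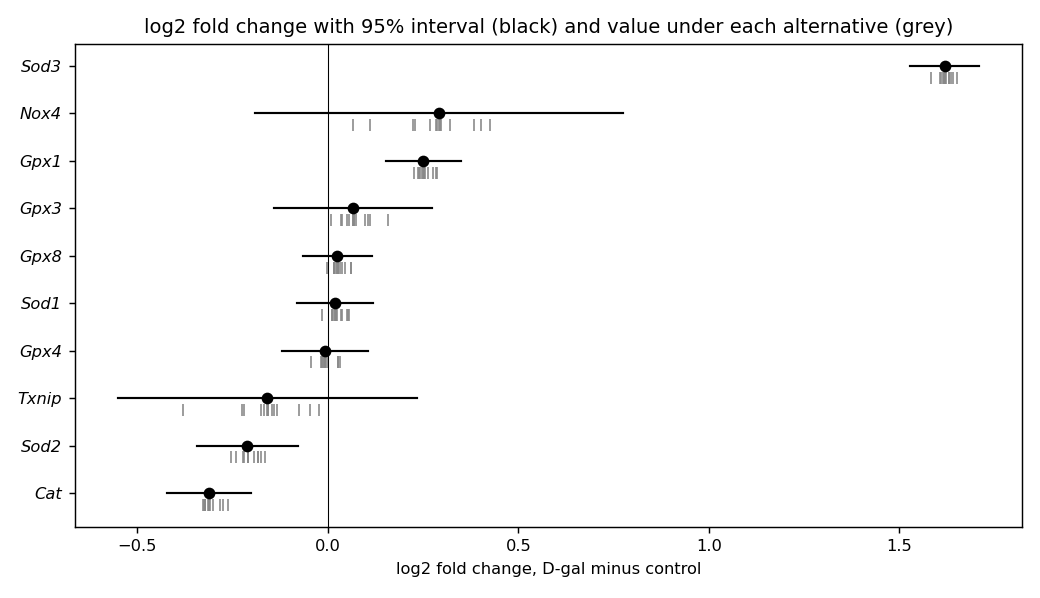
Log2 fold change (D-gal minus control, horizontal axis) of the 10 genes with its 95% interval in black and the value under each alternative analysis as grey marks. Sod3 stands apart at 1.62, Cat and Sod2 lie below 0 and Gpx1 above, and the intervals of the other 6 genes include 0.

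In the control group the order of the levels per length (TPM over all exons) was Gpx8 (322.4), Gpx1 (244.6), Sod3 (152.1), Gpx4 (151), Txnip (116.7), Sod1 (113.6), Cat (81.26), Gpx3 (50.98), Sod2 (21.99) and Nox4 (0.978). Sod3 and Gpx4 overlapped between libraries, as did Txnip and Sod1, and the other neighbours did not. In the D-gal group Sod3 came first at 473.6 ± 23.2 TPM, followed by Gpx8 at 332.7, Gpx1 at 295.2 and Gpx4 at 152.3 TPM. Sod1 and Txnip had changed places there, at 116.7 and 105.9 TPM, but overlapped. Cat (66.36), Gpx3 (54.16), Sod2 (19.25) and Nox4 (1.21 TPM) kept their order. The order depends on the gene length used: Sod1 was first of the 10 in both groups on the deposited FPKM (207.9 and 215.7) and with principal transcript lengths. Sod3 moved from rank 3 to rank 2 on the FPKM scale and from rank 5 to rank 2 with principal transcripts.

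Among 9877 genes with at least 100 counts in every library, the 3 whose log2 normalized counts were most like those of Sod3 over the 6 libraries were Stk38l, Trim24 and Igfbp7, each with a Pearson r of at least 0.999. Stk38l is a kinase of the NDR family, Trim24 a transcriptional cofactor, and Igfbp7 a secreted binding protein of insulin-like growth factors. Their log2 fold changes were 0.48 (SE 0.04), 1.08 (SE 0.03) and 0.96 (SE 0.04). In all, 192 genes had an r over 0.99, and as the libraries form 2 groups, the 6 points are not independent.

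No tested neighbour of Sod3 had a difference as large as its own. As Sod3 stood at percentile 99.2 of all genes tested, nothing is read from this. Of 7 genes tested within 500 kb, 1 rose and 1 fell at an adjusted p under 0.05 (edgeR). Over all genes tested, 16.9% were higher and 17.8% lower. The neighbours called were 9230114K14Rik, at a distance of 84757 bp (log2 fold change 0.37, SE 0.08, adjusted p = 0.00833), and the kinase gene Pi4k2b (-0.27, SE 0.06, adjusted p = 0.0111). Both were named after their values were seen. The nearest, Ccdc149, lies 3233 bp away and had mean normalized counts of 12.61 and 22.37 (log2 fold change 0.83, SE 0.34, adjusted p = 0.0924).

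Promoter windows of RefSeq (GRCm38.p6), from 250 bases before to 50 bases after a transcript start, were matched for 9 of the 10 genes, all but Sod3, in 12 windows. The core of the antioxidant response element, TGACNNNGC on either strand, to which NRF2 is known to bind, was found in Sod1 only, on the minus strand with its first base at -56. The same letters are in 12.4% of all 32851 windows. The E-box CACGTG, which reads the same on both strands, was in none of the 12 windows and in 7.15% of all. A match describes the letters in the window and does not show binding.

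The wider pathways were followed in 12 lists of 144 further genes, of which 142 were in the table and 115 were tested. Of these 115, 25 rose and 25 fell (21.7% each) at an adjusted p under 0.05, where 16.9% and 17.8% of all genes tested did. Their median log2 fold change was -0.02. With the 2-fold criterion 4 rose and 1 fell. The values below are edgeR log2 fold changes with their SE and p-values adjusted over all genes tested.

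**Figure D5:**
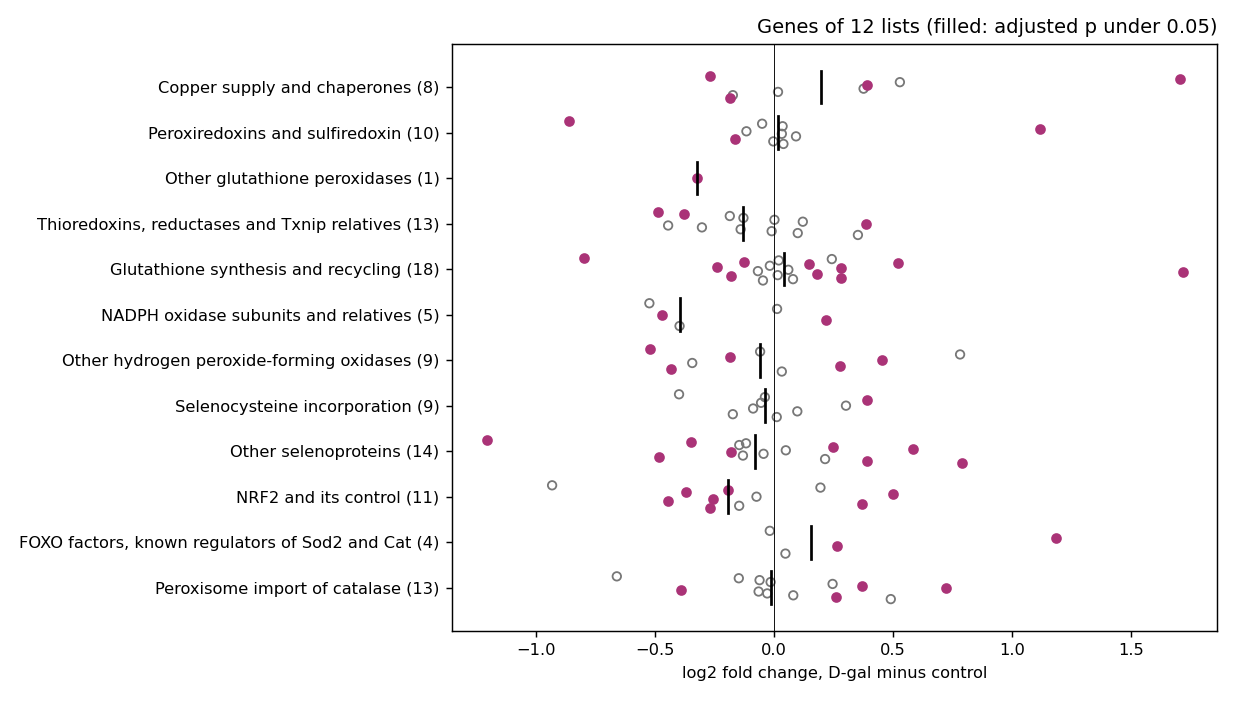
Log2 fold change (D-gal minus control, horizontal axis) of the genes tested in each of the 12 lists, with the number tested in brackets, filled where the adjusted p was under 0.05, and the list median as a bar. Calls lie on both sides of 0 in 9 of the 12 lists, and all medians lie between -0.40 and 0.20.

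Sod1 and Sod3 need copper. Of 8 genes of copper supply tested, 2 rose (Ccs and Atp7b) and 2 fell (Slc31a1 and Commd1), with a list median of 0.20. Ccs, the chaperone that loads copper into Sod1, had 409.6, 397.4 and 366.6 normalized counts under PBS and 491.5, 466.3 and 580.8 under D-gal (0.39, SE 0.10, adjusted p = 0.0152). It was higher in all D-gal libraries, and its adjusted p without control replicate 3 was 0.0513 (log2 fold change 0.34). Atp7b, a copper-exporting ATPase, was very low (mean 5.04 and 16.0 normalized counts, log2 fold change 1.70, SE 0.54, adjusted p = 0.0405). Slc31a1, the copper importer at the cell surface, changed by -0.18 (SE 0.05, adjusted p = 0.0196), and Commd1, which takes part in copper export, by -0.27 (SE 0.08, adjusted p = 0.0322). The calls on Atp7b, Slc31a1 and Commd1 were lost in 8 of 12, 5 of 13 and 8 of 13 alternatives. Atp7b lost it without any 1 library other than control replicate 3 (log2 fold change 1.30 to 1.81, against 2.60 without control replicate 3), Slc31a1 without control replicate 3 or D-gal replicate 1 or 2 (-0.16, -0.18 and -0.19), and Commd1 without any 1 library other than D-gal replicate 2 (-0.29 to -0.20).

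Peroxiredoxins are thiol peroxidases that compete with catalase for hydrogen peroxide. Of 10 genes tested in that list 1 rose and 2 fell, with a median of 0.01. Prdx4, the peroxiredoxin of the endoplasmic reticulum, fell from 1468, 1454 and 1409 normalized counts to 855.2, 796.1 and 733.8 (-0.86, SE 0.06, adjusted p = 4.36e-05). Sesn1, a sestrin and known p53 target, rose from 597.8, 672.4 and 657.4 to 1178, 1499 and 1500 (1.12, SE 0.10, adjusted p = 0.000126). Both were apart between the groups in every library. Prdx1, the abundant cytosolic form, fell by less (-0.17, SE 0.04, adjusted p = 0.0182), with 15.4% of its words shared with pseudogenes, and its adjusted p was 0.0631 without control replicate 2 (-0.15). Of the other glutathione peroxidases only Gpx7 was tested, and it fell (-0.32, SE 0.07, adjusted p = 0.00661). Gpx7 acts in the endoplasmic reticulum as Gpx8 does. Gpx2, Gpx5 and Gpx6 were not tested.

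Of the thioredoxins, the partners that Txnip binds, Txn1 was lower, while Txn2 was not called (0.12, SE 0.06, adjusted p = 0.168). Txn2 is outside the naming rule and was named after its value was seen. Of 13 thioredoxins, reductases and relatives of Txnip tested, 1 rose and 2 fell, with a median of -0.13. Txn1 fell from 2722, 2749 and 2857 normalized counts to 2094, 1677 and 2169 (-0.49, SE 0.09, adjusted p = 0.0037), and 6.95% of its words of 31 bases are shared with a pseudogene. Txnrd1, which reduces it, fell from a mean of 5615 to 4322 (-0.38, SE 0.04, adjusted p = 0.000346). Arrdc4, an arrestin related to Txnip that is known to be induced by glucose with it, rose from 398.2, 421.9 and 394.9 to 531.9, 526.3 and 529 (0.38, SE 0.06, adjusted p = 0.00195). The SD of its D-gal libraries was 2.81 around a mean of 529.1 normalized counts, against 407.2 around 1650 for Txnip. The counting error of Arrdc4 was not computed, so nothing is read from its small spread.

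Glutathione peroxidases need glutathione and NADPH. Of 18 genes for their synthesis and recycling, 6 rose and 4 fell, with a median of 0.04. Me1, the cytosolic malic enzyme that yields NADPH, had the largest log2 fold change of the genes called, from 1577, 1502 and 1526 normalized counts to 4522, 5731 and 4886 (1.72, SE 0.08, adjusted p = 7.87e-06). Of its words of 31 bases, 36.9% occur in other genes such as the pseudogene Gm7049, so its count is uncertain. Idh1, another source of NADPH, rose (0.28, SE 0.04, adjusted p = 0.000939), and Pgd, of the pentose phosphate pathway, fell (-0.18, SE 0.03, adjusted p = 0.00437). Slc7a11, the cystine importer that feeds glutathione synthesis, fell from 151.6, 126.5 and 131.3 to 83.05, 81.9 and 69.89 (-0.80, SE 0.13, adjusted p = 0.00266). The remaining falls, outside the naming rule and named after their values were seen, were Slc3a2, the partner of Slc7a11 (-0.12, SE 0.04, adjusted p = 0.0277), and Glrx (-0.24, SE 0.07, adjusted p = 0.0386), each lost in 8 of 13 alternatives. Slc3a2 lost the call without any 1 library other than control replicate 1 (-0.13 to -0.10), and Glrx without any other than D-gal replicate 2 (-0.26 to -0.19). The remaining rises, likewise named after their values were seen, were Ggct (0.52, SE 0.12, adjusted p = 0.0101) and Glrx2 (0.28, SE 0.08, adjusted p = 0.0249). Gclm (0.18, SE 0.05, adjusted p = 0.0335) and Glrx3 (0.15, SE 0.04, adjusted p = 0.0291) rose too. Ggct lost its call in 0 of 13 alternatives, Glrx2 in 5, Gclm in 7 and Glrx3 in 8. The count of 6 was 3 without control replicate 1 or 2 or D-gal replicate 3.

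Only 5 of 17 NADPH oxidase subunits and relatives were tested besides Nox4. Of these 1 rose and 1 fell (2 without D-gal replicate 2). Cyba, the p22phox subunit that Nox4 needs, fell from 475.8, 493.7 and 444.3 normalized counts to 327.7, 338.5 and 354.3 (-0.47, SE 0.07, adjusted p = 0.00169). All D-gal libraries lay below all control libraries, and 7.39% of its words are shared with other genes. Poldip2, a protein known to bind p22phox and raise Nox4 activity, rose (0.22, SE 0.04, adjusted p = 0.0024). In the list of other oxidases that form hydrogen peroxide, 9 genes were tested, of which 2 rose and 3 fell. Of the 9, 8 are oxidases and 1, Pxdn, is a matrix peroxidase that uses hydrogen peroxide. Xdh, xanthine dehydrogenase, fell from a mean of 1529 to 1132 (-0.43, SE 0.05, adjusted p = 0.000318), and Pxdn fell by 0.19 on the log2 scale (SE 0.04, adjusted p = 0.00699). Maoa, a mitochondrial amine oxidase, rose (0.28, SE 0.04, adjusted p = 0.00103), as did the peroxisomal Acox3 (0.46, SE 0.07, adjusted p = 0.00124), which overlaps an antisense gene. Aox1, outside the naming rule and named after its value was seen, fell (-0.52, SE 0.15, adjusted p = 0.0294), with adjusted p-values of 0.0558, 0.0760, 0.0718 and 0.0615 without control replicate 1, 2 or 3 or D-gal replicate 2 (log2 fold changes of -0.55, -0.51, -0.50 and -0.55).

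Gpx1, Gpx3 and Gpx4 are selenoproteins. Of 9 genes that insert selenocysteine 1 rose, Secisbp2, which binds the selenocysteine insertion element (0.39, SE 0.08, adjusted p = 0.00605). Without control replicate 3 or without D-gal replicate 1, 1 gene of the list also fell. Of 14 other selenoproteins 4 rose and 4 fell, with a median of -0.08. Msrb1, a methionine sulfoxide reductase, rose from a mean of 534.6 to 801.2 (0.58, SE 0.07, adjusted p = 0.000447), as did the mitochondrial Selenoo (0.39, SE 0.06, adjusted p = 0.00119), which shares exons with Tubgcp6 on the other strand. Dio3, which inactivates thyroid hormone, fell from 272.8, 223.6 and 221.2 normalized counts to 110, 92.82 and 108.4 (-1.21, SE 0.13, adjusted p = 0.000289). Selenop, the secreted selenium carrier, fell (-0.35, SE 0.04, adjusted p = 0.000521) and overlaps Ccdc152. The others, outside the naming rule and named after their values were seen, were Selenom and Dio2, which rose, and Selenoh and Selenoi, which fell (adjusted p = 0.0158, 0.0441, 0.0188 and 0.0356). Selenom lost its call without D-gal replicate 1 (log2 fold change 0.21, adjusted p = 0.0518). Dio2 lost it without any 1 library other than control replicate 3 (0.60 to 0.89, highest adjusted p = 0.150). Selenoh lost it without control replicate 1 or 3 or D-gal replicate 1 or 2 (-0.47 to -0.40, highest adjusted p = 0.0591), and Selenoi without control replicate 1 or 2 or D-gal replicate 2 or 3 (-0.17 to -0.15, highest adjusted p = 0.104).

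NRF2, encoded by Nfe2l2, is a known activator of many antioxidant genes. Of 11 genes of NRF2 and its control, 2 rose and 5 fell, with a median of -0.19. Genes of the other lists were not sorted by whether NRF2 acts on them, and NRF2 activity was not tested. The small MAF proteins Mafk (0.50, SE 0.04, adjusted p = 8.35e-05) and Maff (0.37, SE 0.07, adjusted p = 0.00403) rose. Sqstm1, the autophagy receptor p62, fell from a mean of 10770 to 8331 (-0.37, SE 0.03, adjusted p = 8.61e-05), and the NRF2 target Nqo1, a quinone reductase, from 494.2 to 363.2 (-0.44, SE 0.07, adjusted p = 0.00172). Sqstm1 and Mafk overlap other genes on the opposite strand. Hmox1, heme oxygenase, (-0.26, SE 0.04, adjusted p = 0.00213), Nfe2l2 itself (-0.19, SE 0.04, adjusted p = 0.0108) and the repressor Bach1 (-0.27, SE 0.08, adjusted p = 0.0407) were the other falls, outside the naming rule and named after their values were seen. Bach1 lost its call without control replicate 2 or 3 or D-gal replicate 2 or 3 (adjusted p = 0.125, 0.105, 0.125 and 0.0908, log2 fold changes of -0.21, -0.25, -0.21 and -0.27).

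FOXO factors and PGC-1alpha are known activators of Sod2 and Cat. Their part in the lower levels of Sod2 and Cat was not tested. Of 4 genes tested in that list 2 rose, Foxo3 and Ppargc1a, while Foxo1 was at -0.02 (SE 0.08) and Foxo4 at 0.05 (SE 0.08), with no call. Foxo3 rose from 3516, 3567 and 3537 normalized counts to 4096, 4343 and 4335 (0.27, SE 0.03, adjusted p = 0.000789). Ppargc1a, which encodes PGC-1alpha, rose from 44.44, 46.51 and 42.41 to 94.27, 100.5 and 109.7 (1.19, SE 0.14, adjusted p = 0.000461). Catalase is imported into peroxisomes by PEX proteins. Of 13 PEX genes tested, not sorted by whether they act on catalase, 3 rose and 1 fell, with a median of -0.01. Pex13, of the docking complex, rose (0.37, SE 0.05, adjusted p = 0.00122), as did Pex26 (0.72, SE 0.17, adjusted p = 0.0114), an anchor of the export complex, and both overlap a gene on the other strand. Pex6, its partner ATPase, outside the naming rule and named after its value was seen, rose too (0.26, SE 0.06, adjusted p = 0.0139). Pex2 fell (-0.39, SE 0.13, adjusted p = 0.0478), but its groups overlapped and it lost the call without any 1 library other than D-gal replicate 1 (-0.45 to -0.29, highest adjusted p = 0.131).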

How the data were processed

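RNA-seq was analysed from 3 control and 3 D-gal libraries of NOR-10 cells, grouped and numbered by their labels, and the dose and time were read in the paper's methods. The authors deposited 1 table with unnormalized read counts per gene, 1 column for each library. It also holds FPKM values, for which the authors divided these counts by a gene length and by the library total. Per the methods, reads were checked with FastQC (version 0.11.9) and trimmed with Trimmomatic (version 0.39), and the submitters' processing notes name HISAT2 (version 2.0.4). The counting tool, the use of strand and the annotation are not given in the sources used here. The labels name an RNA-seq kit and the methods a kit for small RNA, and the labels were followed.

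The counts were fitted over the whole table with edgeR (version 4.0.16, R 4.3.3): TMM factors (0.9855 to 1.0150), filterByExpr, the quasi-likelihood test and Benjamini-Hochberg adjustment over 13407 genes. Normalized counts were scaled by TMM to the mean effective library size, TPM were computed from counts and the exon lengths of GENCODE M21 (GRCm38), and the SE was derived from the log2 fold change and its F statistic. The chi-square between replicates was 6.00 to 9.42 per degree of freedom, above sampling noise, so each library was counted. Same-numbered libraries did not deviate together (correlations -0.013, -0.007 and 0.025), and no block was used. Counting error is Poisson error at the mean count.

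The 10 genes and the 12 lists were chosen with earlier results of these data known. Named were all 10 genes, of each list the 2 genes with the smallest p in each direction among those called, every list gene also past a log2 fold change of 1 in size, the partners Ccs, Cyba, Txn1, Arrdc4 and Prdx1, and the 3 genes most correlated with Sod3. The alternatives were DESeq2 (version 1.42.0), RLE size factors, no filter on low counts, a minimum of 10 counts per library, the replicate block, each library left out, limma (version 3.58.1) on log2(FPKM + 1) or log2(FPKM + 0.1), other thresholds, and, added after the data had been seen, counts thinned to the smallest library and principal transcript lengths.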

Additional observations from a re-analysis of the deposited data

How the results depend on the processing

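Over 14 alternatives, 138 of 140 log2 fold changes of the 10 genes moved by less than the spread between replicates. The exceptions were those of Cat, -0.26 in limma on log2(FPKM + 1) and -0.28 on log2(FPKM + 0.1). Left-out libraries gave 1.58 to 1.64 for Sod3 and -0.33 to -0.28 for Cat. Sod1, Gpx4 and Gpx8 changed sign around 0, with ranges of -0.02 to 0.05, -0.04 to 0.03 and -0.002 to 0.05.

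At an adjusted p under 0.01, 1259 genes of the table were higher and 1470 lower, and 15 and 14 genes of the lists. With a log2 fold change of at least 1 as well as an adjusted p under 0.05, these were 318 and 246, and 4 and 1. Under the other alternatives 1739 to 2555 genes of the table were higher and 1912 to 2401 lower, and 20 to 26 and 18 to 26 genes of the lists. With the replicate block the table gave 1934 and 2048 and the lists 25 and 20, and Sod2 was no longer past the threshold, at a log2 fold change of -0.21. Of the 50 list genes called, 33 kept the call at an adjusted p under 0.05 in every alternative fit run, 17 lost it in at least 1, and none reversed. The stricter thresholds above are not among these fits, and fewer list genes passed them. The cause of these differences was not tested.

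Shares per length moved with the gene length. With the deposited FPKM the control and D-gal shares were 76.9% and 57.8% for Sod1, 6.34% and 4.06% for Sod2, 16.8% and 38.1% for Sod3, 18.2% and 20.7% for Gpx1, 16.3% and 15.5% for Gpx4, and 58.6% and 56.9% for Gpx8, and the D-gal share of Gpx3 was 6.87%. With principal transcripts they were 78.8% and 58.8% for Sod1, 4.21% and 2.68% for Sod2, 17.0% and 38.5% for Sod3, 33.5% and 37.2% for Gpx1, 5.89% and 5.77% for Gpx3, 27.6% and 25.7% for Gpx4, and 33.0% and 31.3% for Gpx8.

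Counting error was largest for Nox4, which was low in both groups. Counting alone gives it a coefficient of variation of 14.6% under PBS and 14.9% under D-gal. Intervals of level do not cover the choice of gene length.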
